A study of Mus musculus with 112 samples.

Results

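Etnppl and 8 other genes of astrocyte metabolism were followed through the cerebral cortex of mice of 7 strains on a control or a calorie restricted (CR) diet. The 9 genes were Etnppl, Aqp4, Slc1a2, Slc1a3, Aldh1l1, Glul, Acsbg1, S1pr1 and Aldoc, out of 19938 genes measured. They were chosen by measured values of these data, above all the strong variation of Etnppl between strains, and each was read from the probe set annotated to that gene symbol alone that had the highest mean signal over the 112 arrays. All 9 were found. Only Glul had a second such probe set.

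Every mouse was a male from the Jackson Laboratory, arrived at 6 weeks of age, was kept singly and ate a diet of AIN93M type before being assigned at 8 weeks to either diet, and each of the 112 arrays held the cortex RNA of 1 mouse taken at 22 weeks. The 14 groups, with 8 mice in each, were the control and CR mice of 6 inbred strains (C57BL6/J, C3H/HeJ, DBA/2J, CBA/J, 129S1/SvImJ and Balbc/J) and of a hybrid, B6C3F1/J, bred from the first 2. By the study's methods food was withheld overnight before tissue was taken, Balbc/J mice were given more food than others on both diets, and the CR ration of 129S1/SvImJ and C57BL6/J mice was lowered again partway, so strain and ration are not separate in this design. Signals were log2 RMA values from Affymetrix Mouse Gene ST arrays, in which 1 unit is a doubling.

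Astrocytes take up the glutamate and potassium that active neurons release, return glutamine to neurons, and supply them with fuel from glycolysis. Etnppl encodes ethanolamine-phosphate phospho-lyase, which breaks phosphoethanolamine down to acetaldehyde, ammonia and phosphate and so removes a building block of the membrane lipid phosphatidylethanolamine. In the brain it is known as a gene of astrocytes. Slc1a2 and Slc1a3 encode the glutamate transporters GLT-1 and GLAST, Glul encodes glutamine synthetase, and Aqp4 the water channel of astrocyte endfeet. Aldh1l1 encodes a dehydrogenase of folate metabolism, Aldoc the brain form of the glycolytic enzyme aldolase, Acsbg1 an enzyme that joins long fatty acids to coenzyme A, and S1pr1 a receptor for the lipid sphingosine 1-phosphate that endothelium also carries.

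Because Etnppl carried the main pattern below, the reference sequence just before its most upstream annotated start is shown, as the stretch of 250 bases on the plus strand at chr3:130617198-130617447 (RefSeq, GRCm38.p6).

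Etnppl: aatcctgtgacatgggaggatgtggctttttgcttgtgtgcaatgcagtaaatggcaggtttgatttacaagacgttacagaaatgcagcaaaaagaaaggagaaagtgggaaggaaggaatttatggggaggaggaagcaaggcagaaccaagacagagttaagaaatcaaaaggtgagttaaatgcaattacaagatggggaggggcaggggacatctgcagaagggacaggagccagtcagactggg

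This window was 46.0% G and C against a median of 52.4% over 32851 promoter windows of the same length. It held none of the motifs searched on both strands, so no base is in capitals. These were the E-box CACGTG (in 6.02% of all windows), the FOXO core TGTTTAC (3.17%), the SOX site ACAATGG (3.02%) and the cAMP response element TGACGTCA (1.55%). Among the other members with a window in the table (Aldoc, Acsbg1, Aldh1l1, Glul, Slc1a2 and Slc1a3), only a window of Aldoc held a match, to the FOXO core. Aqp4 and S1pr1 are named only. The window is reference sequence, and how the strains differ in it was not tested.

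The 9 measured markers of excitatory neurons had a mean log2 signal of 10.3 in the median array. A pair of control arrays stood apart and went against the cortex label. In replicate 6 of the C57BL6/J control mice and replicate 8 of the B6C3F1/J control mice, the 12 cerebellar marker genes were higher than in the rest of the group by a median of 4.03 log2 units. Excitatory neuron markers averaged only 7.91 and 8.22 in these arrays, inhibitory neuron markers 8.92 and 9.05 against 9.62 in the median array, and microglial markers 7.12 and 7.35 against 8.02. The same cerebellar median was 1.69 in replicate 8 of the DBA/2J control mice and 1.06 in replicate 6 of the CBA/J CR mice. These 4 cerebellum-rich arrays are kept below unless said otherwise. Astrocyte markers (9 of 10 measured) kept within 9.02 to 9.49 in control arrays and 9.03 to 9.42 in CR arrays as a mean over the list. The 2 markers of Bergmann glia, cells of the cerebellum, averaged 9.37 in C57BL6/J control replicate 6 and 9.38 in B6C3F1/J control replicate 8. The median array had 7.65. In whole cortex, fewer cells of a type and less RNA per cell cannot be told apart.

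The level of Etnppl separated the strains more than it separated the diets. Control means fell from C57BL6/J at 8.52 ± 0.60 (SD, n = 8 mice) through Balbc/J at 7.74 ± 0.19, CBA/J at 7.61 ± 0.29, B6C3F1/J at 7.48 ± 0.65, 129S1/SvImJ at 7.11 ± 0.31 and DBA/2J at 6.67 ± 0.39 to C3H/HeJ at 6.04 ± 0.43. The distance of 2.48 log2 units, or 5.57-fold, between the first and the last was the 7th largest among the 19938 genes, against a median range of 0.27. That distance and rank include cerebellum-rich replicate 6 of C57BL6/J. Without it the C57BL6/J control mean was 8.33, still the highest, so the distance was smaller. Strain accounted for 74.9% of the variance of Etnppl between arrays, diet for 2.7%, their interaction for 3.3% and mice within groups for 19.1%. Without the pair of most cerebellum-rich arrays strain accounted for 78.1%. Since this pattern is why Etnppl was chosen, it is given as a description with no test.

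Array by array, C57BL6/J stood at the top. Its control mice ran from 8.02 through a median of 8.35 to 9.86, the highest value being cerebellum-rich replicate 6, and its CR mice from 8.36 through 8.89 to 9.18. C3H/HeJ stood at the bottom, from 5.55 through 5.89 to 6.81 in control and from 5.70 through 6.27 to 7.28 in CR mice. All 16 arrays of C57BL6/J therefore lay above all 16 of C3H/HeJ.

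Between these ends the strains ran into each other. In Balbc/J Etnppl was narrow, from 7.44 through 7.74 to 8.03 in control and from 7.64 through 7.96 to 8.16 in CR mice. In CBA/J it ran from 7.27 through 7.63 to 8.04 in control and from 8.00 through 8.18 to 8.39 in CR mice. So CBA/J moved from below Balbc/J on the control diet to above it on CR, in both cases with overlapping arrays.

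The strains 129S1/SvImJ and DBA/2J lay lower. Mice of 129S1/SvImJ were the most scattered on CR, from 6.61 through 7.39 to 8.28, against 6.73 through 7.14 to 7.54 on the control diet. DBA/2J control mice ran from 6.18 through 6.65 to 7.51, and its CR mice from 6.74 through 7.24 to 7.70. The highest DBA/2J control array was cerebellum-rich replicate 8, and all 7 others lay below the lowest CR array of the strain.

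**Figure D1:**
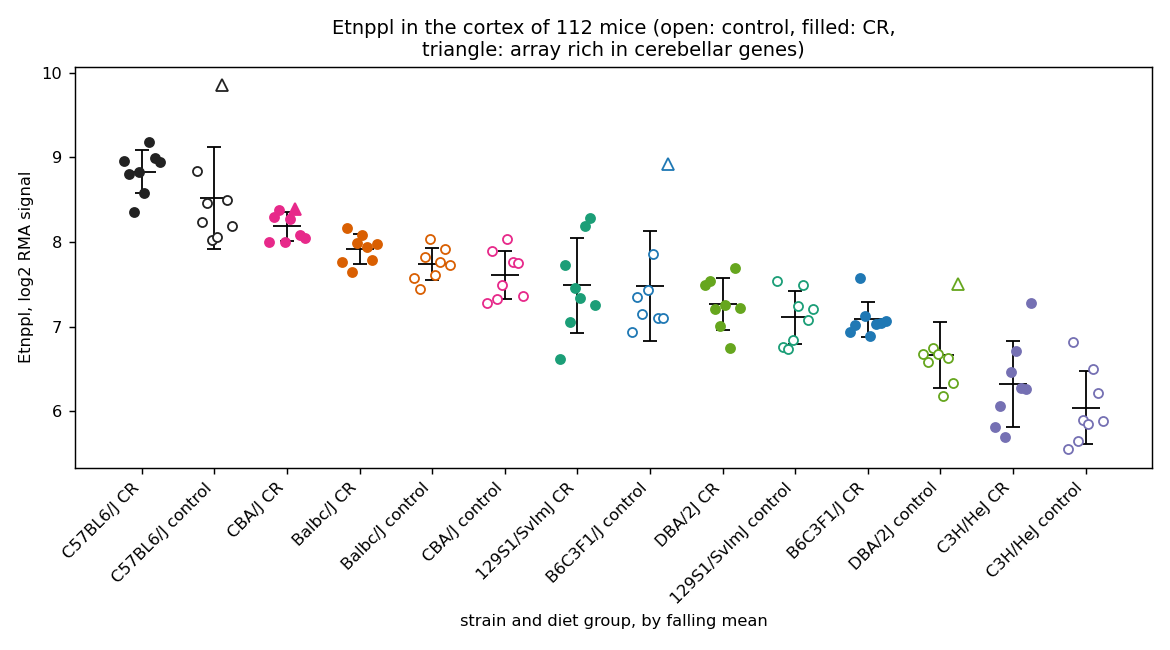
Log2 RMA signal of Etnppl (y axis) in each of the 112 arrays, by strain and diet group in falling order of the mean (x axis). Open symbols are control and filled symbols CR mice, triangles are the 4 cerebellum-rich arrays, and bars are the mean ± SD of 8 mice. C57BL6/J groups average 8.83 and 8.52 and C3H/HeJ groups 6.32 and 6.04, with the other groups between.

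Ordered by mean, the 14 groups formed a near continuous series. Neighbours in that order differed by more than their pooled SD at only 2 steps, from CBA/J CR to Balbc/J CR (0.26 against an SD of 0.17) and from B6C3F1/J CR to DBA/2J control (0.42 against 0.31). The arrays of neighbouring groups overlapped at every step. In each inbred strain the CR group ranked above its control group, and in the hybrid below it.

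The hybrid lay between its parents in Etnppl. Over both diets it averaged 7.28, against 8.68 in C57BL6/J and 6.18 in C3H/HeJ, which is 0.15 log2 units below the middle of the parents and 0.20 below it without the pair of cerebellum-rich arrays. Hybrid control mice ran from 6.94 through 7.25 to 8.92, where the highest was cerebellum-rich replicate 8 and the next 7.86, and hybrid CR mice from 6.89 through 7.04 to 7.57. Apart from replicate 8, no hybrid array reached the lowest array of C57BL6/J.

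The genes next to Etnppl on chromosome 3 did not share the size of its strain pattern. The 3 nearest measured genes before it were Col25a1, Sec24b and Casp6, and the 3 after it Ostc, Rpl34 and Lef1, in the order of GRCm38.p6. Their control means spanned 0.26, 0.08, 0.41, 0.55, 0.92 and 0.17 log2 units. Over the 14 group means, Ostc and Rpl34 had a Pearson r of 0.54 and 0.51 with Etnppl and the other 4 lay between -0.24 and 0.10. Ostc was highest in C57BL6/J, as Etnppl was, but lowest in 129S1/SvImJ. None of the 6 passed the limma test for the diet (3 were under an unadjusted 0.05), with adjusted p from 0.158 to 0.993. Rpl34, a ribosomal protein gene, has many near copies in the genome, and its signal is uncertain for that reason.

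Over the 14 group means the gene most like Etnppl was Vps41, a subunit of a complex that tethers vesicles to lysosomes, with r = 0.88. Mks1 (0.87), Efhd1 (0.86), Snrpc (0.86) and Haus8 (0.85) followed. Without the 4 cerebellum-rich arrays Vps41 stayed in front at 0.87, with Hspa2, Snrpc, Gar1 and Dgat2 next at 0.85 to 0.87. The strain ranges of these 8 genes, from 0.18 to 0.86 log2 units in control mice, were all narrower than that of Etnppl. These are descriptions over 14 points that share strains. Of the 8 other members Aldoc came closest, at 0.54 and rank 629.

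The main comparison asked whether CR changed these genes over all strains. Etnppl and S1pr1 rose, Acsbg1 fell, and the other 6 did not pass the test. The 3 calls among 9 genes stand beside 2.34% of all genes called (1.17% higher and 1.17% lower), at a Benjamini-Hochberg adjusted p under 0.05 in limma over 19938 genes. The members were picked with results for some of them known, so this count is a description.

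Etnppl rose from a mean of 7.31 in control to 7.59 in CR mice, by 0.28 ± 0.07 log2 units (SE; 95% interval 0.13 to 0.42), or 21%. The adjusted p was 0.0209. It was higher under CR in the 6 inbred strains, by 0.18 to 0.61, and lower by 0.40 in the hybrid. The pair of cerebellum-rich control arrays were the highest of their groups in Etnppl, and without them the rise was 0.33 ± 0.06 with an adjusted p of 0.00028. The call rested on several strains together. It was lost without CBA/J (0.23, adjusted p = 0.193), DBA/2J (0.22, 0.175), 129S1/SvImJ (0.26, 0.0723) or Balbc/J (0.29, 0.0505), with an adjusted p between 8.73e-05 and 0.193 over the 24 alternatives tried. Etnppl, with a mean signal of 7.45 over the arrays, was not among the genes of the setting limited to those above the median gene. Several of its group means, the lowest being 6.04 in C3H/HeJ control mice, lay below the array medians of 7.14 to 7.26.

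S1pr1 rose over all strains together, with a positive difference in 7 of 7. Its mean went from 10.19 to 10.29, by 0.10 ± 0.02 log2 units or 7.08% (95% interval 0.06 to 0.13, adjusted p = 0.000137), and the call held under all 25 alternatives. The difference was smallest in DBA/2J at 0.02 and largest in Balbc/J at 0.16. In Balbc/J its control mice ran from 9.82 through 10.04 to 10.16 and its CR mice from 10.05 through 10.18 to 10.29, and 6 of 8 CR arrays lay above the highest control array. In B6C3F1/J control mice ran from 10.19 through 10.26 to 10.40 and CR mice from 10.27 through 10.41 to 10.64. There all 8 CR arrays lay above the control median, as they also did in Balbc/J and C57BL6/J. The cerebellum-rich pair differed from their groups by only -0.01 and -0.04 in S1pr1.

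Acsbg1 fell from 9.99 to 9.91, by 0.08 ± 0.02 log2 units, a change of -5.48% (95% interval -0.13 to -0.04, adjusted p = 0.0359). It was lower under CR in all strains but C3H/HeJ, where the difference was 0.02. In CBA/J, where the difference was -0.14, control mice ran from 10.13 through 10.21 to 10.28 and CR mice from 9.996 through 10.02 to 10.24, and 1 of 8 CR arrays exceeded the control median. Without the cerebellum-rich pair, in which Acsbg1 was 0.61 and 0.70 above the other control arrays, the difference was -0.06 ± 0.02 (adjusted p = 0.029). The call was lost when any strain other than C3H/HeJ was left out, with an adjusted p up to 0.192.

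Glul and the other 5 genes did not pass. Glul differed by 0.05 ± 0.02 log2 units, positive in all 7 strains, with an adjusted p of 0.0671 that passed under 3 of 25 alternatives, and its second probe set differed by 0.02 ± 0.02 (adjusted p = 0.572). In CBA/J 7 of 8 CR arrays of Glul, from 12.28 through 12.36 to 12.39, lay above the highest control array at 12.31. For Aldh1l1 the difference was 0.03 (95% interval -0.01 to 0.07), for Slc1a2 0.03 (-0.03 to 0.10), for Slc1a3 -0.04 (-0.08 to 0.01), for Aqp4 -0.03 (-0.10 to 0.05) and for Aldoc -0.02 (-0.05 to 0.02). Adjusted p lay between 0.473 and 0.832. Without the cerebellum-rich pair Aqp4, Slc1a2 and Aldoc took the other sign, at 0.02, -0.01 and 0.01, and none passed.

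**Figure D2:**
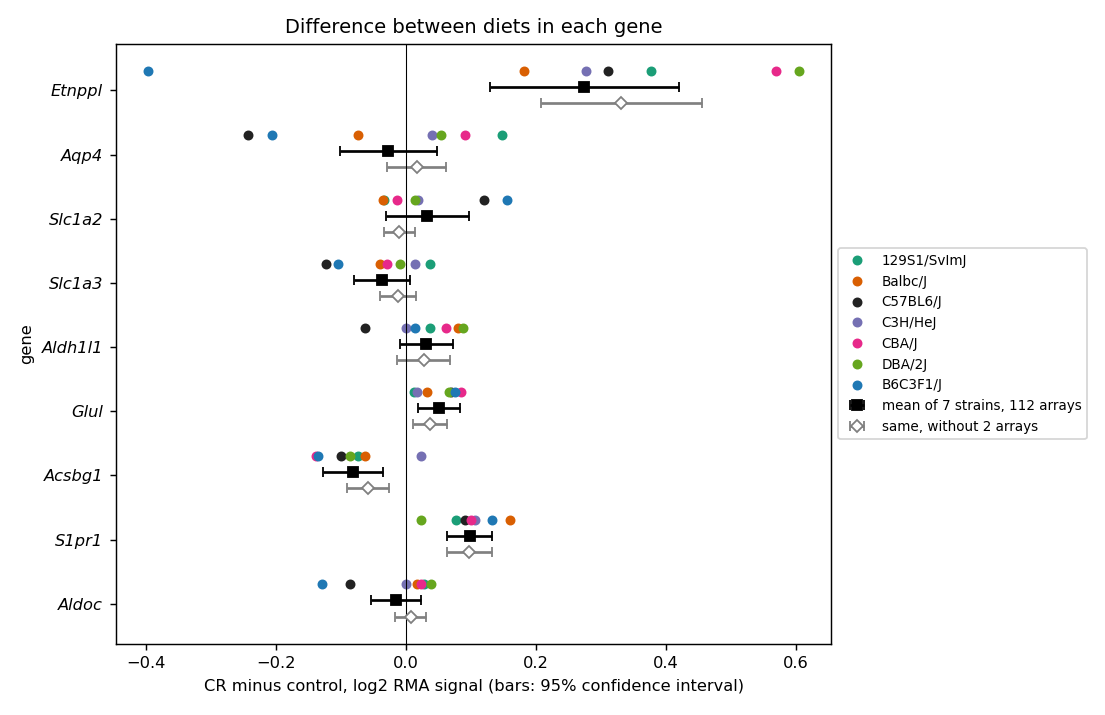
Difference in log2 RMA signal, CR minus control (x axis), for the 9 genes (y axis). Coloured points are the 7 strains, black squares the mean of the strains over 112 arrays and open diamonds the same without the pair of cerebellum-rich control arrays, with 95% confidence intervals. Etnppl at 0.28 and S1pr1 at 0.10 lie above 0, Acsbg1 at -0.08 below it, and the point far to the left in Etnppl is B6C3F1/J at -0.40.

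Marker genes of other cells were read beside these differences, and their part in them was not tested. With all arrays 12 of 12 cerebellar markers were lower in CR mice (median -0.09), and without the pair 9 of 12 were higher (0.03). The 5 choroid plexus markers were higher in CR mice in either case (0.09 and 0.12). Their list mean ranged from 7.07 to 9.66 over control arrays and from 6.95 to 9.53 over CR arrays. The 5 endothelial markers, a cell type that carries S1pr1, had a median of -0.04 with 1 of 5 higher. None of these 22 markers passed the limma test with all arrays in, and 2, both endothelial, had an unadjusted p under 0.05. With the pair left out 2 of 5 endothelial markers fell (median -0.05), and the same number fell without the 4 arrays. Of 9 excitatory neuron markers 7 were higher in CR mice with all arrays (median 0.07) and 1 without the pair (-0.04), none of them called in either case. Astrocyte markers had a median of -0.003 with 3 of 9 higher in CR, where 1 rose and 1 fell and 5 had a limma unadjusted p under 0.05. Without the pair 3 of 9 were again higher (median -0.011), and 2 rose and 2 fell.

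Within single strains none of the 63 tests (9 genes in 7 strains) passed an adjusted p of 0.05 in limma, where 0.0272% of the tests of all genes in the 7 strains did. At an unadjusted p under 0.05 there were 14 of 63, where 6.76% of the tests of all genes in the 7 strains passed. Without the cerebellum-rich pair several in their strains no longer did, by limma unadjusted p. These were Aqp4, Slc1a3 and S1pr1 in C57BL6/J (0.164, 0.282 and 0.0612) and Etnppl, Aqp4, Acsbg1 and Aldoc in B6C3F1/J (0.244 to 0.336). Etnppl in 129S1/SvImJ and C57BL6/J, Aqp4 in 129S1/SvImJ and Glul in CBA/J came under 0.05 instead (0.00387 to 0.0239). Etnppl differed most in DBA/2J, by 0.61 ± 0.19 or 1.52-fold (limma unadjusted p = 0.00228, adjusted p = 0.522), and in CBA/J, by 0.57 ± 0.19 or 1.48-fold (0.00396 and 0.287). With array weights the CBA/J difference of Etnppl, 0.56, passed at an adjusted p of 0.0374. In the remaining inbred strains the difference was 0.38 in 129S1/SvImJ, 0.31 in C57BL6/J, 0.28 in C3H/HeJ and 0.18 in Balbc/J, each with an interval that holds 0.

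The cerebellum-rich arrays moved the strain they belong to. Without replicate 6 the C57BL6/J difference of Etnppl was 0.50 in place of 0.31. Without replicate 8 the difference in B6C3F1/J was -0.19 in place of -0.40, and 1 of 8 hybrid CR arrays exceeded the control median with all arrays in. Without the 4 arrays DBA/2J differed by 0.73 (adjusted p = 0.0932). The methods' t-test on linear signal put Etnppl past the study's threshold within a strain, p under 0.01, in CBA/J and DBA/2J. It put Glul, Acsbg1 and S1pr1 past it in 1 strain each. The study listed a cortex gene only when more strains than these passed, so by these counts none of them met its rule.

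A test of whether the CR effect differed between strains called none of the 9 genes, beside 0.0401% of all genes. For Etnppl the within-strain differences spanned 1.00 log2 units, from -0.40 to 0.61, with an interaction F of 2.97 (limma unadjusted p = 0.0103, adjusted p = 0.666). Aqp4 was next, with a limma unadjusted p of 0.0372 and an adjusted p of 0.773. Its difference was -0.24 in C57BL6/J and -0.21 in B6C3F1/J, the strains of the cerebellum-rich pair, and was -0.09 and -0.06 without them, while 129S1/SvImJ stood at 0.15 with all 8 CR arrays above the control median.

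Strain differences in the other 8 genes were tested among control mice. All but Slc1a2 passed, 7 of 8, beside 65.4% of all genes. Glul, the enzyme that makes glutamine, set DBA/2J apart: its control mice ran from 11.77 through 11.84 to 11.94 and averaged 11.85, while the other strains averaged 12.24 to 12.40 (adjusted p = 1.78e-22). Its CR mice ran from 11.82 through 11.90 to 11.99. The lowest arrays of any other strain were the cerebellum-rich pair, at 11.88 and 12.06, so that all 16 DBA/2J arrays lay below every array of the other strains apart from B6C3F1/J control replicate 8. The second probe set of Glul gave DBA/2J control mice 11.88 and the other strains 12.15 to 12.42.

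The strain 129S1/SvImJ had the lowest control mean in 5 of these genes. For Acsbg1 it averaged 9.64 ± 0.08 against 9.90 to 10.21 elsewhere (adjusted p = 1.22e-14), and its control arrays, from 9.49 through 9.64 to 9.77, overlapped only those of B6C3F1/J and C3H/HeJ. For Aldh1l1 it averaged 8.23 ± 0.10 and Balbc/J, the highest, 8.83 ± 0.09 (3.27e-18). For Aldoc it averaged 12.37 ± 0.07 against 12.84 ± 0.20 in C57BL6/J (4.74e-12).

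Aqp4 and Slc1a3 were also lowest in 129S1/SvImJ, at 9.02 ± 0.15 and 11.24 ± 0.08. For Aqp4 the highest control mean was 9.67 ± 0.45 in C57BL6/J (adjusted p = 8.78e-10), where cerebellum-rich replicate 6 stood at 10.77 and the other arrays between 9.38 and 9.67. C3H/HeJ was close behind at 9.62 ± 0.10. Without replicate 6 C57BL6/J averaged 9.515, and C3H/HeJ was the highest. The strains differed little in Slc1a3, over 0.20 log2 units (0.00525).

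S1pr1 was highest in C57BL6/J and lowest in Balbc/J, with 10.36 ± 0.08 and 10.02 ± 0.12 (adjusted p = 1.36e-09), and 129S1/SvImJ lay between at 10.21. For the glutamate transporter Slc1a2 the control means lay within 0.21 (0.373). Without the cerebellum-rich pair, in which Slc1a2 differed by -1.24 and -1.19 from the group, they lay within 0.16 and passed (4.27e-05), so that 8 of 8 passed beside 71.7% of all genes. Its spread within groups was then 0.06, less than the median gene's 0.13.

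**Figure D3:**
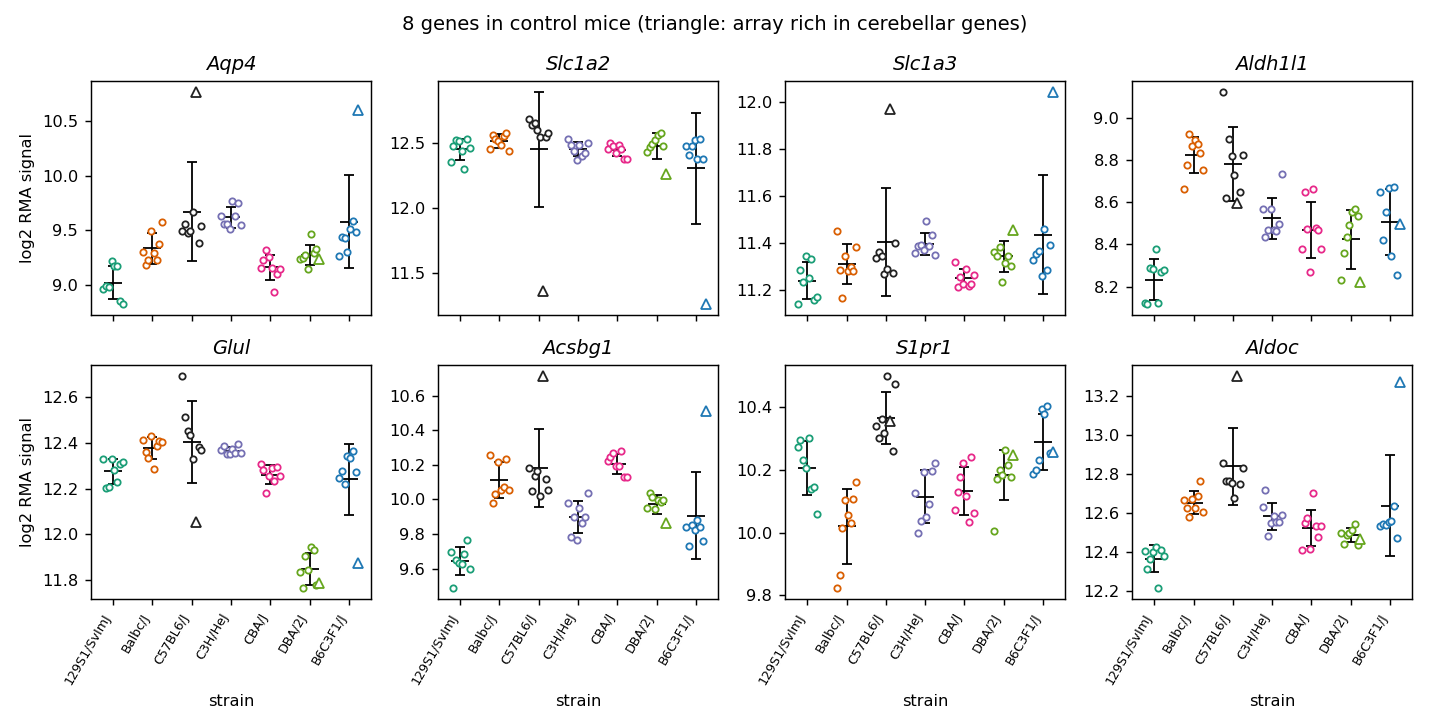
Log2 RMA signal (y axes, each with its own range) of 8 genes in control mice of the 7 strains (x axes). Points are arrays, triangles cerebellum-rich arrays and bars the mean ± SD of 8 mice. Glul is lowest in DBA/2J at 11.85 and Acsbg1 in 129S1/SvImJ at 9.64, and the triangles of C57BL6/J and B6C3F1/J lie far from their groups in Aqp4, Slc1a2, Slc1a3, Acsbg1 and Aldoc.

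The hybrid B6C3F1/J was set against the mean of its parents over both diets. It was lower in Acsbg1 by 0.18 ± 0.04 log2 units (SE, limma adjusted p = 5.29e-05), in Glul by 0.13 ± 0.03 (5.09e-05), in Aldh1l1 by 0.12 ± 0.03 (0.00222) and in Aldoc by 0.12 ± 0.03 (0.00289), a drop in 4 of 8 genes beside 17.2% of all genes lower and 14.7% higher (31.9% in all). In Acsbg1 the hybrid mean of 9.84 lay under both parents, 10.13 in C57BL6/J and 9.91 in C3H/HeJ. In Glul it also lay under both, at 12.28 against 12.44 and 12.38, and the second probe set gave a larger difference of -0.22 ± 0.03. For Aqp4, Slc1a2, Slc1a3 and S1pr1 the differences were -0.12, -0.10, 0.01 and 0.07, with adjusted p from 0.0576 to 0.844. Without the cerebellum-rich pair 6 genes were lower, Aqp4 (-0.16, adjusted p = 0.000504) and Slc1a2 (-0.07, 0.00388) being added, where 36.4% of all genes passed in either direction. In control mice alone 2 of the 8 passed. After a second quantile normalization Aldoc no longer passed (-0.09, adjusted p = 0.0596) and S1pr1 passed as higher in the hybrid (0.09, 0.00587).

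Among mice of the same group, Etnppl was set against each of the other 8 genes after the 14 group means were removed. With 112 arrays 5 of 8 relations passed, by 100000 two-sided permutations within groups and Benjamini-Hochberg adjustment over the 8. Slc1a2 had a Pearson r of -0.63 (permutation p = 1e-05, the smallest these permutations can give, adjusted p = 8e-05) and a Spearman rho of -0.46 (permutation p = 2e-05). Aldoc (0.53), Slc1a3 (0.47), Aqp4 (0.46) and Acsbg1 (0.46) had positive r with adjusted permutation p from 0.00312 to 0.0075, and a rho between 0.13 and 0.28. Of these only Aldoc also passed by rho (adjusted permutation p = 0.0333). Glul, Aldh1l1 and S1pr1 were at -0.25, -0.10 and -0.08 and did not pass.

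The positive r values were smaller without the cerebellum-rich pair, which were also the 2 arrays farthest from the median of Etnppl. Etnppl lay 1.53 and 1.65 above the other 7 arrays of the group in them, Aqp4 1.26 and 1.17, Slc1a3 0.65 and 0.70, and Aldoc 0.53 and 0.72. Glul lay 0.40 and 0.42 lower. With those 2 arrays left out r was 0.25 for Aldoc, 0.18 for Acsbg1, 0.17 for Slc1a3 and 0.14 for Aqp4. The group means still included the 2 arrays, so these values are not free of them. Without all 4 cerebellum-rich arrays, and with group means taken again, the values were 0.19, 0.17, 0.05 and 0.07, and none passed.

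The negative relation of Etnppl with Slc1a2 was the only 1 of the 8 that still passed over those 108 arrays. There r was -0.36 (permutation p = 0.00081, adjusted p = 0.00648) and rho -0.31 (permutation p = 0.00299). Leaving out the next pair of arrays farthest in Etnppl, C3H/HeJ CR replicate 8 and 129S1/SvImJ CR replicate 1, left r at -0.28. The group means still included these arrays. Within strains r was negative in 4 of 7 and ran from -0.66 to 0.41, so the relation did not hold in every strain. Excitatory neuron markers averaged 9.54 in C3H/HeJ CR replicate 8, the lowest of any CR array, and 10.31 in 129S1/SvImJ CR replicate 1. The median array had 10.3, and the part of cell mix in the relation was not tested.

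**Figure D4:**
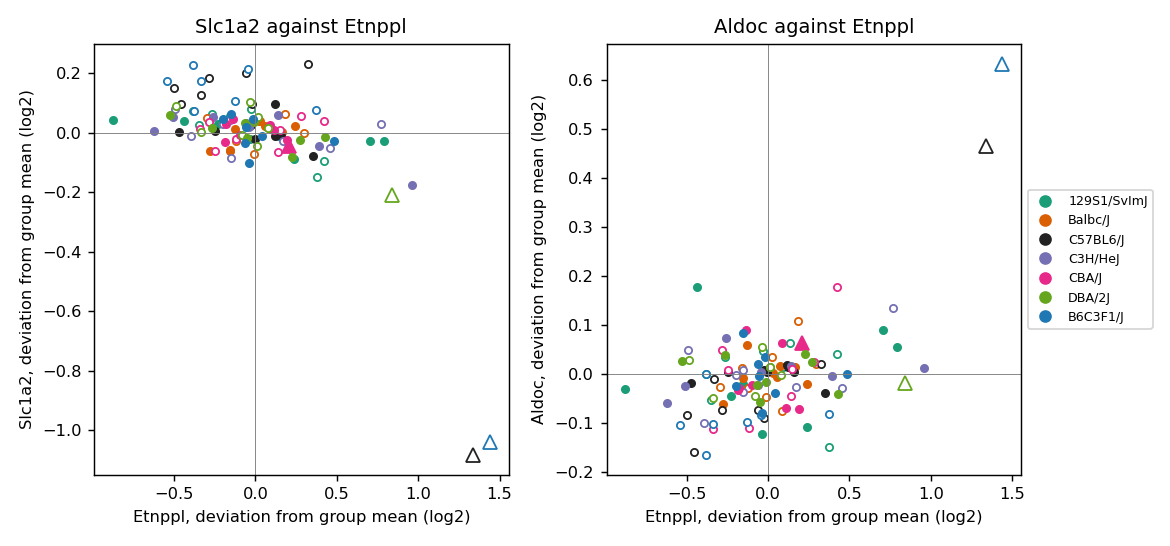
Deviation of Slc1a2 (left) and Aldoc (right) from the group mean (y axes, log2 units) against that of Etnppl (x axes, log2 units) in 112 arrays, coloured by strain, open for control and filled for CR mice, triangles for the 4 cerebellum-rich arrays. Leaving out the pair of triangles at the far right took the r of Aldoc from 0.53 to 0.25 and left that of Slc1a2 at -0.45. In both cases the group means still included the pair. With group means taken again without the 4 triangles, r was 0.19 for Aldoc and -0.36 for Slc1a2.

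Across all measured genes, those that went most closely with Etnppl among mice of a group were Itih3 (r = 0.76), Sparc (0.75), Zhx3 (0.75), Agt (0.75) and Cyp2j9 (0.74). Agt encodes angiotensinogen, which astrocytes make in the brain. Without the 4 cerebellum-rich arrays they were Ddc (0.68), Tppp3 (0.65), Itih3 (0.64), Dnm3 (0.64) and Agt (0.64). Ddc encodes the decarboxylase that makes dopamine and serotonin from their precursors. Itih3 and Agt were among the first 5 in both cases.

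The pathways around the members were read from fixed lists, chosen with earlier results of these data known, and the counts are descriptions beside 1.17% of all genes called in each direction, or 1.75% higher and 2.61% lower without the cerebellum-rich pair. Of 17 measured genes of phosphoethanolamine and phosphatidylethanolamine metabolism, 2 rose and none fell under CR (median 0.01, against 0.00 over all genes). These were Selenoi (0.09 ± 0.02, limma adjusted p = 0.00188) and Cept1 (0.07 ± 0.02, 0.0301), which encode the transferases that complete phosphatidylethanolamine. Both rose without the cerebellum-rich pair too. Napepld (0.10) and Gpcpd1 (0.05) did not pass.

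Of 19 genes of the glutamate and glutamine cycle, 1 rose and none fell. It was Slc7a11, the exchanger that exports glutamate for cystine, at 0.17 ± 0.04 (limma adjusted p = 0.00696) and higher in 7 of 7 strains. Slc38a3 (-0.07), Slc25a22 (-0.06) and Slc1a1 (0.11) did not pass. Without the cerebellum-rich pair 2 rose and 2 fell, Slc1a1 (0.06, adjusted p = 0.0474) being added above and Slc38a3 (-0.07, 0.0447) and Slc1a4 (-0.08, 0.000675) below.

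Of 12 genes of water and ion handling around Aqp4, 1 rose and none fell. It was Gja1, the main gap junction protein of astrocytes, at 0.10 ± 0.02 (limma adjusted p = 9.74e-05), higher in 7 of 7 strains. Gjb6 (0.12), Clcn2 (-0.06) and the potassium channel gene Kcnj10 (0.06) did not pass, although without the pair Gjb6 rose (0.14, adjusted p = 0.0181) and Clcn2 fell (-0.07, 0.0204).

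Of 20 glycolysis genes none rose or fell in limma, 8 of them having an unadjusted p under 0.05 and the smallest adjusted p being 0.0922. The first were Pygm (-0.09), Pkm (-0.04), Pygb (0.04) and Pfkfb3 (0.07). With the cerebellum-rich pair left out, Pkm (-0.05, adjusted p = 0.037) and Aldoa (-0.05, 0.0463) fell.

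Of 13 genes of sphingosine 1-phosphate handling, 1 rose, Plpp3, a lipid phosphatase at the cell surface, at 0.05 ± 0.01 (limma adjusted p = 0.0325, 7 of 7 strains). Sgpp1 (-0.04), Sgpl1 (-0.03) and Mfsd2a (0.05) did not pass. Of 14 folate genes 1 rose, the mitochondrial Mthfd1l, at 0.11 ± 0.03 (0.0069, 7 of 7 strains), and Gart (0.03), Slc19a1 (-0.04) and Mthfd1 (-0.04) did not pass.

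Of 11 acyl-CoA synthetase genes 1 rose and 1 fell. Acss1, the mitochondrial acetyl-CoA synthetase, rose by 0.08 ± 0.02 (limma adjusted p = 0.0345), and Slc27a1, a fatty acid transport protein, fell by 0.06 ± 0.02 (0.0156) and was lower in 7 of 7 strains. Slc27a2 (0.10) and Acsl4 (0.07) did not pass.

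Of 35 other astrocyte genes 1 rose and 4 fell. Cbs, the first enzyme of transsulfuration, fell by 0.09 ± 0.02 (limma adjusted p = 0.0068), Grin2c, a glutamate receptor subunit, by 0.17 ± 0.05 (0.0375), both lower in 7 of 7 strains, the secreted protease gene Htra1 by 0.10 ± 0.03 (0.0381) and the calcium binding protein gene S100b by 0.13 ± 0.04 (0.044). Phkg1, a subunit of phosphorylase kinase, rose by 0.07 (0.0448), and was named after its values were seen. When that pair was left out 3 rose and 7 fell. Grin2c then fell by 0.11 in place of 0.17.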

How the data were processed

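Cortex RNA of 112 male mice was measured on 1 array per mouse. The authors deposited log2 values made with Affymetrix Expression Console and its RMA algorithm, which corrects background, sets arrays to a shared distribution and summarises each probe set. No source used here gives their versions. Array medians lay between 7.14 and 7.26, so a shift common to a whole array cannot be seen, and the number of arrays limits the precision. Of 35556 probe sets, 21789 had exactly 1 gene symbol, giving 19938 genes by the highest mean. No low signal was filtered.

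A mean per group was fitted with limma 3.58.1 in R 4.3.3 (98 residual and 4.62 prior degrees of freedom), with contrasts for CR within and across strains, their interaction, strain, and hybrid against parents. Benjamini-Hochberg adjustment ran over all genes. The fit was tested on simulated data. Correlations and figures used Python 3.11.15, numpy 2.4.6, scipy 1.17.1 and matplotlib 3.10.9. Labels do not say whether replicate mice were litter mates.

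The members and lists were chosen with earlier results of these data known. Named genes were the members, up to 4 per list (called first, then by p), the 5 most correlated with Etnppl in each way, and its 3 measured neighbours on each side. Alternatives covered normalization, centring, low signal, variance model, array weights, probe set, arrays, strains, model, the methods' t-test, diet, rank correlation and a replicate block. Sequence differences between strains can change a probe's signal, and this was not tested.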

Additional observations from a re-analysis of the deposited data

Results flagged for a closer look

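In each of the 126 combinations of gene and group, the array at either end was compared with its nearest neighbour, as a share of the range of the 8 arrays. In 19 of them the gap was wider than a Dixon test at the 95% level allows, and chance gives about 1 in 20. Of these, 13 came from the pair of cerebellum-rich control arrays.

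In C57BL6/J control replicate 6, the highest value of the group was reached by Etnppl (9.859), Aqp4 (10.771), Slc1a3 (11.97), Acsbg1 (10.717) and Aldoc (13.305), and the lowest by Slc1a2 (11.365), each with a gap this wide. Glul (12.055) and Aldh1l1 (8.595) were lowest there too, with smaller gaps. In B6C3F1/J control replicate 8 the same genes stood out on the same sides, Etnppl at 8.923, Aqp4 at 10.6, Slc1a3 at 12.046, Acsbg1 at 10.513, Aldoc at 13.272 and Slc1a2 at 11.264, and Glul was lowest, here with a wide gap, at 11.876. Etnppl in DBA/2J control replicate 8, a further cerebellum-rich array, was 7.505 against 6.743 for the next.

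The remaining 5 lay in other arrays. Etnppl in B6C3F1/J CR replicate 3 was 7.57, the next array being 7.126. In C3H/HeJ CR replicate 8 Aqp4 was highest at 10.062 and Slc1a2 lowest at 12.294, and Etnppl was highest there too at 7.281, though not by a gap this wide. Aldh1l1 in C3H/HeJ control replicate 8 was 8.735, and S1pr1 in DBA/2J control replicate 1 was lowest at 10.006.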

How the results depend on the processing

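The 9 genes gave 48 results, computed under up to 31 settings. With 1 strain left out, the CR rise of Etnppl was 0.258 without 129S1/SvImJ, 0.291 without Balbc/J, 0.226 without CBA/J and 0.22 without DBA/2J, none of them called, and the genes called across strains went from 3 to 1, which was S1pr1, each time. Array weights called 1 within-strain difference in place of 0 and 7 hybrid differences in place of 4, and control mice alone gave 2. Relations with Etnppl that passed went from 5 to 1 without the 4 cerebellum-rich arrays and to 2 by Spearman. The values that changed sign were uncalled in every setting. For the CR difference these were Aqp4 (0.005 with array weights, 0.017 without either 2 or 4 cerebellum-rich arrays, 0.01 without C57BL6/J, 0.003 without B6C3F1/J), Slc1a2 (-0.013, -0.01 and -0.014 with weights and without 2 or 4 arrays) and Aldoc (0.003, 0.008 and 0.006 in the same order, 0.004 without B6C3F1/J). For the hybrid it was Slc1a3, at -0.022 with centred arrays, -0.026 with weights, -0.013 without 2 or 4 arrays, -0.015 in CR mice, and from -0.033 to 0.03 over single arrays left out. Against Etnppl, Aldh1l1 became 0.024 and Glul 0.188 without the 4 arrays, and Glul 0.089 by Spearman. The cause was not tested. The single arrays left out because a member stood apart in them were chosen after seeing the data.

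Replicate numbers are shared by all groups. Over the 56 same-numbered control and CR pairs of a strain, deviations from the group means correlated between -0.481 and 0.373. The median was 0.113, with 31 over 0.1, which does not settle whether a number marks something shared. The labels do not say that the numbers pair mice, and they were not taken to. With the replicate block within strain the CR rise of Etnppl was 0.275 (adjusted p = 0.0182), 3 genes were called across strains, and no call among the 9 genes changed.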
